A study of Homo sapiens with 6 samples.

Results

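Aminoacyl-tRNA synthetases join each amino acid to its own transfer RNA before the ribosome can use it. They were examined here as 40 genes chosen by name from the 58051 genes of the count table: the synthetases whose symbol is the letter of an amino acid followed by ARS, the same symbols with the suffix 2, EPRS, FARSA, FARSB, and the scaffold genes AIMP1, AIMP2 and EEF1E1. The rule used no measured value. It gave 20 cytosolic synthetase genes, 17 mitochondrial synthetase genes (suffix 2) and 3 scaffold genes. All 40 passed the filter on low counts, with 632 to 49336 counts per gene and library. Symbols are the older ones that the table carries (CARS for CARS1, for example).

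The RNA came from HEK293T cells, a human embryonic kidney line with the SV40 T antigen. The 3 empty vector libraries came from cells transfected with pcDNA3.1-, and the 3 ppk1 libraries from cells transfected with pcDNA3.1-ppk1, which encodes a bacterial enzyme that makes polyphosphate. Both groups received a plasmid by lipofection, were kept in OptiMEM and were harvested after 48 h. The labels give a range of plasmid amounts and 2 lipofection reagents without saying which culture had which, and the share of cells that took up the plasmid is not stated. Libraries with the same letter (B, C or D) in both groups are matched biological replicates. The ppk1 transcript itself was not analysed here.

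Most amino acids have a cytosolic and a mitochondrial synthetase encoded by separate nuclear genes. GARS and KARS are exceptions, since each encodes the enzyme of both compartments, and QARS acts in the cytosol while mitochondria make glutaminyl-tRNA by another route. EPRS joins glutamyl- and prolyl-tRNA synthetase in a single protein, and FARSA and FARSB are the subunits of cytosolic phenylalanyl-tRNA synthetase. Several cytosolic enzymes sit with AIMP1, AIMP2 and EEF1E1 in the multi-synthetase complex. When amino acids run short, the kinase GCN2 senses uncharged tRNA, and the transcription factor ATF4 is then made and activates many cytosolic synthetase genes, often through a composite C/EBP-ATF element.

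Sequences upstream of the start sites were taken from RefSeq (GRCh38.p14), which held a window for 33 of the 40 genes. DARS, LARS, VARS, YARS, AARS2 and VARS2 were among those not matched. The first sequence is the 250 bases before the annotated start of CARS, shown because CARS was the member whose transcript level passed the test (chr11:3057424-3057673, minus strand). The second is the 84 bases between the starts of HARS and HARS2, which are transcribed away from each other (chr5:140691371-140691454, plus strand, toward HARS2). Capitals mark the ETS element CCGGAAG or its reverse complement CTTCCGG.
CARS: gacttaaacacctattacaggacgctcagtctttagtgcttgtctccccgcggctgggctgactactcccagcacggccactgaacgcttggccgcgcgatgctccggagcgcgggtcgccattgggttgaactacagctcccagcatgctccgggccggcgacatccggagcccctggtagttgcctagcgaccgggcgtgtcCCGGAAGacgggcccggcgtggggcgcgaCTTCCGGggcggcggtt
HARS-HARS2: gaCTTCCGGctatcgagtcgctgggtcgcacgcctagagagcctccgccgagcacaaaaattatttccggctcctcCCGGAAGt
In CARS the matches began 46 and 17 bases before the start. Both genes of the divergent pair held the same 2 matches in the shared interval. The ETS element was found in 16 of the 33 genes, 9 cytosolic and 7 mitochondrial, and in 40% of their 45 start site windows, against 8.52% of 35116 windows over all genes. Nearby starts of the same gene, as in SARS and EARS2, count the same match again in these windows. The windows over all genes were not limited to genes expressed here, so the 2 shares are not like with like. A match is only a run of letters and says nothing about binding.

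The C/EBP-ATF element was searched as TGATGNAAN on both strands (reverse complement NTTNCATCA), in the 250 bases before each start. The windows of 40 bases below show it, in capitals, for AARS (chr16:70289670-70289709, minus strand), IARS (chr9:92293698-92293737, minus strand) and the mitochondrial YARS2 (chr12:32756070-32756109, minus strand). They are shown because ATF4 acts through this element.
AARS: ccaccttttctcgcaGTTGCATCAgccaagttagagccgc
IARS: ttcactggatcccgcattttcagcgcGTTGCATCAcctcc
YARS2: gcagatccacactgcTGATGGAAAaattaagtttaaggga
The matches began 188, 14 and 197 bases before the start. GARS also held a match, 34 bases before its downstream start, so 4 of 33 genes did. The share was 8.89% of the member windows and 3.13% of all windows, which were again not limited to genes expressed here. CARS had no match in the windows of either of its starts.

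The libraries held between 40851783 and 67122986 counts, with the ppk1 library deeper than its empty vector match for each letter. Over all genes, 1777 of 19574 tested had an adjusted p below 0.05 in edgeR's quasi-likelihood test with the replicate letter as a block (9.08%). They were 791 higher with ppk1 (4.04%) and 986 lower (5.04%), and upper-quartile scaling gave 422 higher of 1355. Levels are given in CPM, counts per 1e6 library counts after TMM scaling. Of the 6 genes listed as markers of the 293 line, VIM, NEFM, CDH2 and NEFL were expressed and PAX2 and LHX1 were low (at most 3.64 and 4.76 CPM). Their summed level was 830 to 939 CPM with the empty vector and 781 to 824 CPM with ppk1, and 1 of the 6, NEFL, was called (lower, log2 fold change -0.29). Summed markers of leukocytes, endothelium and squamous epithelium stayed at or below 0.318 CPM in every library. KRT14 had no count in any library, and a count of 0 allows up to 0.0734 CPM. Fibroblast markers summed to 2.98 to 3.95 CPM. Hepatocyte markers summed to 0.871 to 1.20 CPM with the empty vector and 0.480 to 0.598 CPM with ppk1, and ALB was called lower (log2 fold change -1.37, edgeR adjusted p 0.00261). The part of these differences in the results below was not tested.

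Synthetase transcript levels differed little between the groups. CARS, for cysteine, was lower, and it was the 1 member of 40 called (2.5%, against 9.08% of all genes). No member was called higher (4.04% of all genes were), and CARS was the 1 called lower (5.04%). The other 39 had log2 fold changes between -0.14 and 0.21. Their 95% intervals ran from -0.29 at the lowest bound to 0.37 at the highest, so that each interval stayed within a 1.29-fold difference in either direction. These intervals use a spread largely shared across genes, and the SEs of all members lay between 0.07 and 0.09. They are therefore narrow also where a gene's own pairs disagree, as for RARS (log2 differences of 0.13, 0.21 and -0.18). At an unadjusted p below 0.05 there were 9 members, 8 higher and 1 lower (22.5%), beside 23.8% of all genes. By this measure 6 of the 17 mitochondrial genes, 1 of the 20 cytosolic genes and 1 of the 3 scaffold genes were higher. Counted in either direction the shares were 35.3%, 10% and 33.3%, beside the 23.8% of all genes, which also pools both directions. The median log2 fold change was 0.03 for the cytosolic genes, 0.08 for the mitochondrial genes and 0.06 for the scaffold genes, beside 0.01 for all genes tested.

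**Figure D1:**
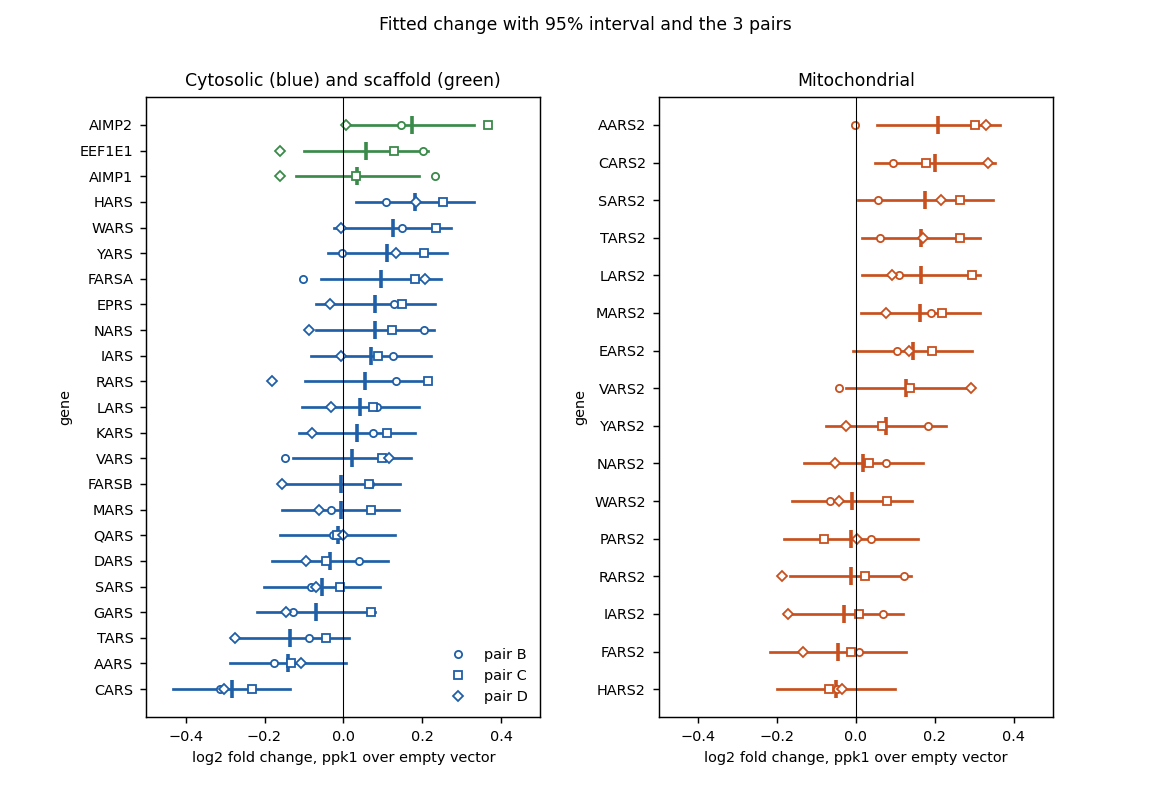
Log2 fold change of 39 of the 40 genes, ppk1 over empty vector, on the x axis (vertical tick with its 95% interval as a line) and the gene on the y axis, with the difference in each of the 3 matched pairs as open symbols. CARS lies farthest to the left, and the other intervals lie between -0.29 and 0.37.

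The pairs differed among themselves. The median over the cytosolic genes was 0.02 in pair B, 0.08 in pair C and -0.07 in pair D on the log2 scale. For the mitochondrial genes it was 0.07, 0.10 and 0.00, and for the scaffold genes 0.20, 0.13 and -0.16. All 3 pairs moved the same way for 14 members, 8 higher and 6 lower, which is 35% of the 40 and compares with 43.8% of all genes tested. The 3 libraries of each group did not overlap for 8 members. HARS, LARS2, MARS2, SARS2 and TARS2 were higher in every ppk1 library (12.5% of the members, beside 13.0% of all genes). AARS, CARS and SARS were lower in every ppk1 library (7.5%, beside 12.6% of all genes).

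The levels themselves spanned a wide range. To compare genes, CPM were divided by the length in kb of the main GENCODE transcript. With the empty vector the cytosolic genes had a median of 79.9 CPM per kb, from 32.7 for HARS, the histidine enzyme, to 174.8 for SARS, the serine enzyme. YARS (153.7 ± 8.29) and IARS (149.8 ± 4.68 CPM per kb, mean ± SD, n = 3), for tyrosine and isoleucine, followed SARS and did not differ beyond their spread. The next genes, MARS (120.8 ± 2.17) and GARS (119.9 ± 2.27 CPM per kb), for methionine and glycine, did not either. The mitochondrial genes had a median of 19.6 CPM per kb, from 7.42 for PARS2 to 92.8 for IARS2, the isoleucine enzyme, whose level lay above the cytosolic median. The scaffold genes lay between 31.6 (AIMP1) and 42.0 CPM per kb (EEF1E1). With ppk1 the medians were 79.7, 19.8 and 43.2 CPM per kb for the cytosolic, mitochondrial and scaffold genes.

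**Figure D2:**
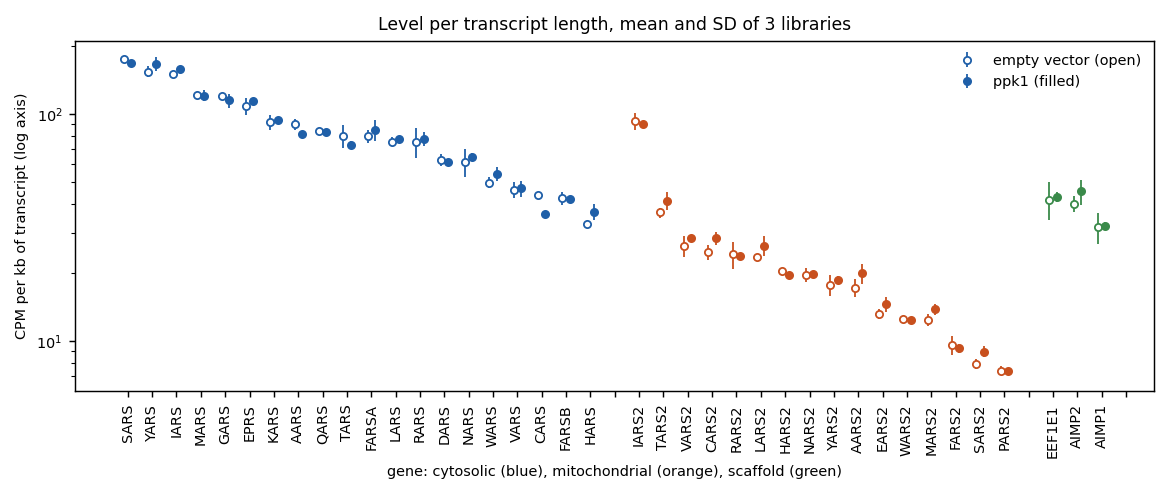
Level of 39 of the 40 genes in CPM per kb of its main transcript (y axis, log scale), with genes on the x axis ordered by level within the cytosolic, mitochondrial and scaffold groups. Open circles are the empty vector and filled circles ppk1 (mean and SD of 3 libraries), and in nearly every gene both circles lie close together compared with the range from 7.42 (PARS2) to 174.8 (SARS).

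CARS encodes cytosolic cysteinyl-tRNA synthetase (ENSG00000110619, chromosome 11). Its level was 117.1, 117.7 and 119.8 CPM in empty vector libraries B, C and D and 94.2, 100.2 and 97.1 CPM in the matching ppk1 libraries. Every ppk1 library lay below every empty vector library, and the spread within a group was small beside the gap. The means were 118.2 ± 1.42 and 97.2 ± 3.01 CPM (SD, n = 3), a fold of 0.822. The log2 fold change was -0.28 (SE 0.07, 95% interval -0.43 to -0.14), with an edgeR adjusted p of 0.00837. The 3 pairs gave -0.31, -0.23 and -0.30. In bulk RNA, fewer expressing cells and less RNA per cell cannot be told apart. Without the replicate block CARS was again the 1 member called (2.40% of all genes were). Without replicate C the fall was as large (-0.31), but the edgeR adjusted p was 0.209 and 0 members were called (2.06% of all genes). At an unadjusted p below 0.05 there was then 1 member, and the share of all genes at that threshold was not counted for this fit. CARS shares 2.8% of its exon length with transcripts on the opposite strand, among them CARS-AS1, and whether reads were counted by strand is not stated.

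Among the uncalled cytosolic genes, those with the smallest p were HARS, AARS, TARS and WARS. HARS (ENSG00000170445, chromosome 5) had 78.8, 82.8 and 77.4 CPM in empty vector libraries B, C and D and 85.0, 98.6 and 88.0 CPM with ppk1. The groups did not overlap, and ppk1 library C was the highest. The log2 fold change of HARS was 0.18 (SE 0.07) and its edgeR adjusted p 0.118. HARS2, its mitochondrial counterpart across the 84 bases shown above, had 50.2, 50.7 and 51.9 CPM and then 48.5, 48.3 and 50.6 CPM. Its log2 fold change was -0.05 (SE 0.07), on the other side of 0 from HARS. The RefSeq starts leave those 84 bases between the 2 genes. By the exons in GENCODE, however, they overlap on opposite strands (11.7% of HARS2's exon length), so reads at their shared end are uncertain.

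AARS (ENSG00000090861, chromosome 16), the alanine enzyme, had 331.6, 309.8 and 297.4 CPM with the empty vector and 293.2, 282.7 and 275.8 CPM with ppk1. All 3 ppk1 libraries were below the empty vector libraries, although the lowest of the latter was close to the highest of the former. Its log2 fold change was -0.14, with an SE of 0.07 and an edgeR adjusted p of 0.24. TARS (ENSG00000113407, chromosome 5), the threonine enzyme, had 317.6, 329.8 and 391.9 CPM and then 299.0, 319.9 and 323.9 CPM. Empty vector library D stood above the other 5, and the groups overlapped. On the log2 scale TARS differed by -0.14, with an SE of 0.07 and an edgeR adjusted p of 0.269. WARS (ENSG00000140105, chromosome 14), for tryptophan, had 145.2, 154.4 and 162.5 CPM and then 161.0, 181.6 and 161.8 CPM. The groups overlapped, and pair D gave a log2 difference of -0.01. The fit gave WARS 0.13 on the log2 scale, with an SE of 0.07 and an edgeR adjusted p of 0.306.

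GARS and KARS supply both compartments. GARS (ENSG00000106105, chromosome 7) had 315.1, 310.4 and 322.3 CPM with the empty vector and 288.2, 325.9 and 291.1 CPM with ppk1. Its ppk1 library C was the highest of all 6 while B and D were the lowest, and the log2 fold change was -0.07 (SE 0.07, edgeR adjusted p 0.622). KARS (ENSG00000065427, chromosome 16), the lysine enzyme, had 173.5, 178.1 and 200 CPM and then 182.6, 192.3 and 189.3 CPM. The ppk1 values lay inside the range of the empty vector libraries, and the log2 fold change was 0.04 (SE 0.07, edgeR adjusted p 0.819). The other 13 cytosolic genes had log2 fold changes from -0.05 (SARS) to 0.11 (YARS). SARS (log2 fold change -0.05) was lower in every ppk1 library by a narrow margin, the closest values being 315.6 CPM with the empty vector and 313.9 CPM with ppk1, both in replicate C. QARS, for glutamine, had the smallest pair differences of the cytosolic genes, with log2 values of -0.03, -0.02 and 0.00. MARS overlaps ARHGAP9 and DDIT3 on the opposite strand over 12.4% of its exon length.

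The 17 mitochondrial genes had log2 fold changes from -0.05 (HARS2) to 0.21 (AARS2), and 0 were called at an adjusted p below 0.05 (edgeR). At an unadjusted p below 0.05 there were 6 (35.3%, beside 23.8% of all genes in either direction). AARS2 (ENSG00000124608, chromosome 6), the alanine enzyme, had 70.3, 69.1 and 59.1 CPM with the empty vector and 70.3, 85.3 and 74.4 CPM with ppk1. Pair B showed no difference, and pairs C and D gave 0.30 and 0.33 on the log2 scale. The log2 fold change of AARS2 was 0.21 (SE 0.08, edgeR adjusted p 0.0796), and without replicate B it was 0.32 (edgeR adjusted p 0.00829). Without C it was 0.16 (edgeR adjusted p 0.741) and without D 0.13 (0.322). CARS2 (ENSG00000134905, chromosome 13), for cysteine, had 46.6, 49.8 and 42.4 CPM and then 49.7, 56.4 and 53.5 CPM. It was higher in each pair, but the groups overlapped between 49.7 and 49.8 CPM. Its log2 fold change was 0.20 (SE 0.08, edgeR adjusted p 0.0877), and without replicate B it was 0.25 (edgeR adjusted p 0.0409). Without C it was 0.21 (edgeR adjusted p 0.576) and without D 0.11 (0.42). Leaving out replicate B thus called 3 members, AARS2 and CARS2 higher and CARS lower (12.5% of all genes were called there).

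TARS2 (ENSG00000143374, chromosome 1), for threonine, had 103.1, 103.8 and 94.7 CPM with the empty vector and 107.7, 124.7 and 106.6 CPM with ppk1. LARS2 (ENSG00000011376, chromosome 3), for leucine, had 108.4, 114.0 and 111.1 CPM and then 116.9, 139.7 and 118.3 CPM. Neither gene's groups overlapped, and in both genes ppk1 library C stood above the rest. The log2 fold changes were 0.17 for TARS2 (SE 0.07, edgeR adjusted p 0.159) and 0.16 for LARS2 (SE 0.07, edgeR adjusted p 0.162). MARS2 and SARS2, singled out after their values were seen because their groups did not overlap, had log2 fold changes of 0.16 and 0.18 (edgeR adjusted p 0.17 and 0.195). SARS2 shares 39.5% of its transcript sequence with AC011455.2, and VARS2 shares 21.1%, chiefly with GTF2H4, so both values are uncertain. The median of the mitochondrial genes without them was 0.08. The remaining mitochondrial genes ranged from -0.05 (HARS2) to 0.14 (EARS2, for glutamate).

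**Figure D3:**
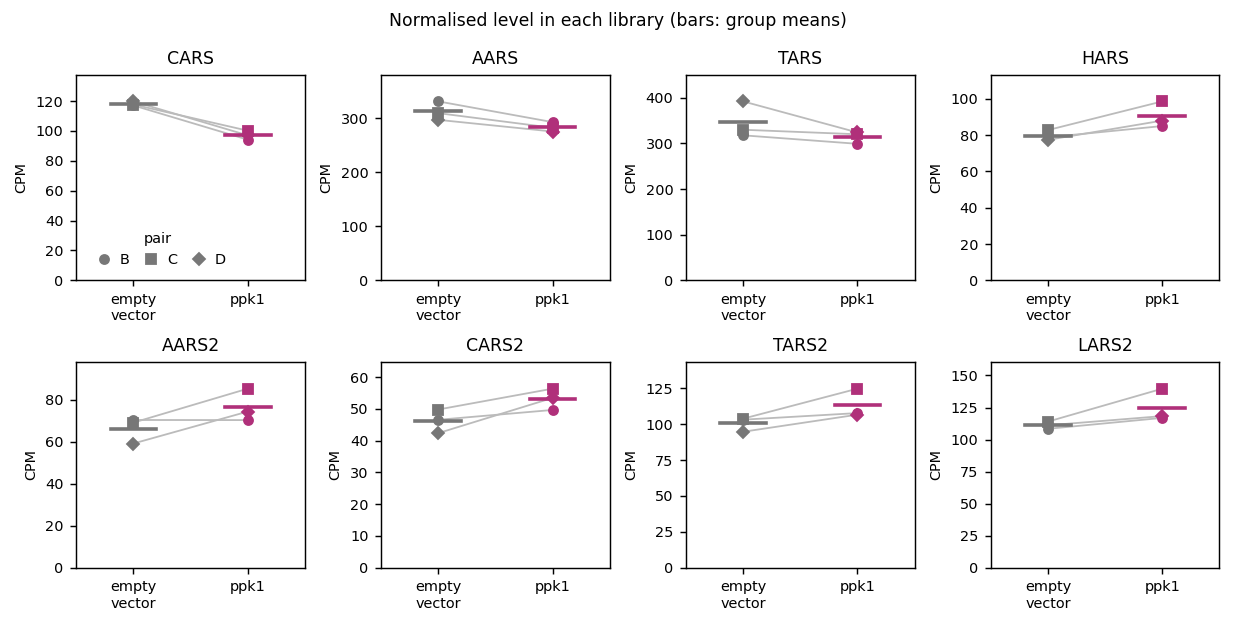
Level in CPM (y axis, from 0) of CARS, AARS, TARS, HARS, AARS2, CARS2, TARS2 and LARS2 in each library, by group on the x axis. Grey lines join matched libraries B, C and D, and horizontal bars mark the group means. The 3 CARS lines fall side by side from 117.1 to 119.8 CPM down to 94.2 to 100.2 CPM, while the lines of AARS2 and TARS differ in slope between pairs.

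The scaffold genes hold the multi-synthetase complex together. AIMP2 (ENSG00000106305, chromosome 7) had 45.3, 49.3 and 53.4 CPM with the empty vector and 50.2, 63.6 and 53.7 CPM with ppk1. Library C carried most of the difference, and the groups overlapped. The log2 fold change of AIMP2 was 0.17 (SE 0.08, edgeR adjusted p 0.154). Without replicate D it was 0.24 (edgeR adjusted p 0.0414), and AIMP2 and CARS were then the 2 members called (9.06% of all genes). Without replicate C it was 0.08 (edgeR adjusted p 0.915). AIMP2 overlaps EIF2AK1 on the opposite strand over 28.9% of its exon length.

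AIMP1 (ENSG00000164022, chromosome 4) had 70.0, 75.8 and 93.3 CPM and then 82.2, 77.4 and 83.5 CPM. EEF1E1 (ENSG00000124802, chromosome 6) had 38.8, 41.9 and 55.0 CPM and then 44.6, 45.8 and 49.2 CPM, and 17.8% of its transcript sequence occurs in other genes, chiefly EEF1E1-BLOC1S5. In both, empty vector library D was the highest of all 6 libraries, and pair D went down while pairs B and C went up. The log2 fold changes were 0.03 for AIMP1 (SE 0.08, edgeR adjusted p 0.831) and 0.06 for EEF1E1 (SE 0.08, edgeR adjusted p 0.707). Of the 11 genes of the complex, including the scaffolds, 0 were called by edgeR (9.08% of all genes were). At an unadjusted p below 0.05 there was 1, beside 23.8% of all genes, and the median log2 fold change was 0.04. Of the 12 cytosolic synthetase genes outside the complex, 1 was called, CARS (lower, as were 5.04% of all genes), and the median was 0.01.

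Cytosolic and mitochondrial synthetases were then set side by side. The summed level of the 20 cytosolic genes was 5388, 5443 and 5693 CPM with the empty vector and 5430, 5750 and 5513 CPM with ppk1. The pair differences were 0.01, 0.08 and -0.05 on the log2 scale, so the sum had no common direction. The summed level of the 17 mitochondrial genes was 1258, 1300 and 1307 CPM and then 1322, 1414 and 1327 CPM, with pair differences of 0.07, 0.12 and 0.02. All 3 ppk1 sums were above all 3 empty vector sums. The ratio of the sums was 4.28, 4.19 and 4.36 with the empty vector and 4.11, 4.07 and 4.15 with ppk1, which is 4.28 ± 0.09 against 4.11 ± 0.04 (SD, n = 3). It was lower with ppk1 in each pair, by log2 differences of -0.06, -0.04 and -0.07. No p is given for a score over these genes.

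Amino acid by amino acid, the ratio of cytosolic to mitochondrial counts in a library does not depend on the library's scaling. There were 16 such comparisons, with EPRS used for both glutamate and proline and FARSA alone, without FARSB, for phenylalanine. The ratio was lower with ppk1 in all 3 pairs for 7, higher in all 3 for 4 and mixed for 5. How often ratios of other genes keep their direction in all 3 pairs was not counted, so this split is a description. With 3 pairs an exact two-sided sign-flip test cannot go below p = 0.25, so no single ratio can pass 0.05 by it. The largest difference was for cysteine, where CARS was lower and CARS2 had log2 differences above 0 in each pair. The CARS to CARS2 ratio was 2.51, 2.36 and 2.83 with the empty vector and 1.90, 1.78 and 1.82 with ppk1, a mean log2 difference of -0.49 ± 0.13 (SD, n = 3 pairs). The groups did not overlap.

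Alanine followed, with AARS to AARS2 ratios of 4.71, 4.49 and 5.03 with the empty vector and 4.17, 3.32 and 3.71 with ppk1 (mean log2 difference -0.35 ± 0.15). Threonine gave -0.30 ± 0.15 and serine -0.23 ± 0.08 (mean log2 difference ± SD, n = 3 pairs), the latter with the uncertain SARS2. Leucine, methionine and valine were the other 3 with a lower ratio in each pair, from -0.11 to -0.17. Histidine went the other way, from ratios of 1.57, 1.64 and 1.49 to 1.75, 2.04 and 1.74, a mean log2 difference of 0.23 ± 0.08. Isoleucine, arginine and tryptophan were also higher in each pair, by 0.07 to 0.14. Per kb of transcript, the cytosolic level exceeded the mitochondrial level in all 16, by 1.61 times (histidine) to 22.0 times (serine) with the empty vector, with a median of 3.61.

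**Figure D4:**
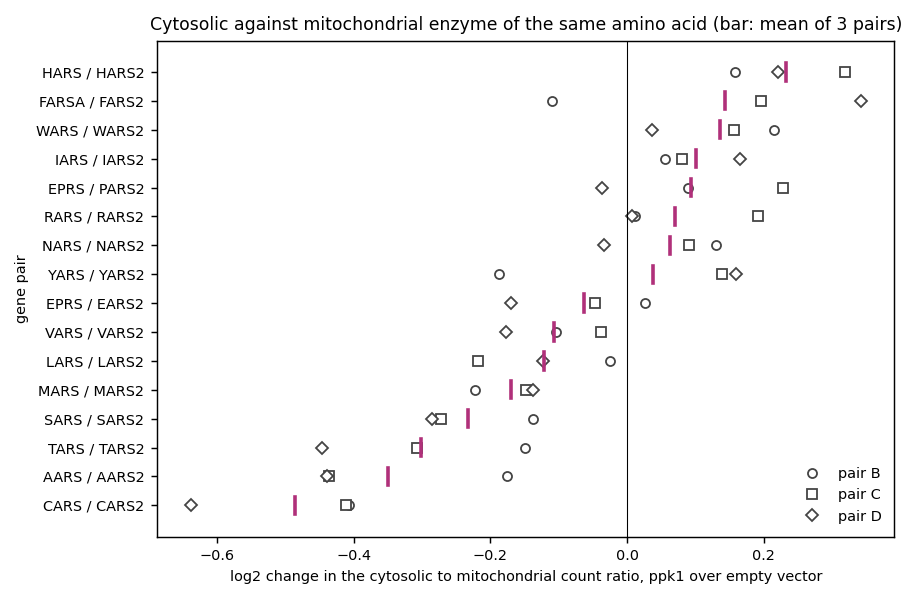
Log2 change in the ratio of cytosolic to mitochondrial counts, ppk1 over empty vector (x axis), for 16 gene pairs (y axis), with open symbols for replicate pairs B, C and D and a vertical bar at their mean. CARS / CARS2 lies lowest at -0.49, and HARS / HARS2 highest at 0.23.

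The pair differences moved with GC content, a property of the transcript that the choice of genes did not use. Across the 40 genes, Pearson's r of the log2 pair difference with transcript GC was -0.42 in pair B, 0.25 in pair C and 0.70 in pair D (Spearman's rho -0.46, 0.25 and 0.69). These are correlations across genes that share 2 libraries, given as a description. Over the 12223 tested genes averaging 200 counts or more per library, r was -0.16, 0.20 and 0.58. Within the 17 mitochondrial genes r was -0.29 in pair B, 0.53 in pair C and 0.82 in pair D, and 0.63 for the fitted log2 fold change. Within the 20 cytosolic genes the same pairs gave -0.56, -0.06 and 0.51, and it was -0.05 for the fitted change. The median GC content was 52.0% for the mitochondrial genes and 48.0% for the cytosolic genes.

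Of the 10 members with the highest GC content, from 54.0% upward and including SARS2, FARSA, VARS, AARS2 and CARS2, 9 were higher with ppk1 in pair D, with a median log2 difference of 0.19. Of the 10 with the lowest GC content, up to 43.3% and including AIMP1, RARS, DARS and EPRS, 0 were higher in pair D, with a median of -0.13. In pair B the same sets had medians of 0.02 and 0.12, the other order. A fit with offsets for each library's relation to GC content and transcript length called 5 members (12.5%, beside 13.5% of all genes). CARS was lower in it, and MARS2, HARS, LARS2 and AARS2 were higher, with edgeR adjusted p-values of 0.0264 for HARS, 0.0296 for LARS2 and 0.0452 for AARS2. In that fit the median log2 fold change was 0.0412 for the cytosolic genes and 0.0843 for the mitochondrial genes, against 0.0285 and 0.0787 without offsets. The part of GC content in the differences between the compartments was not tested.

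**Figure D5:**
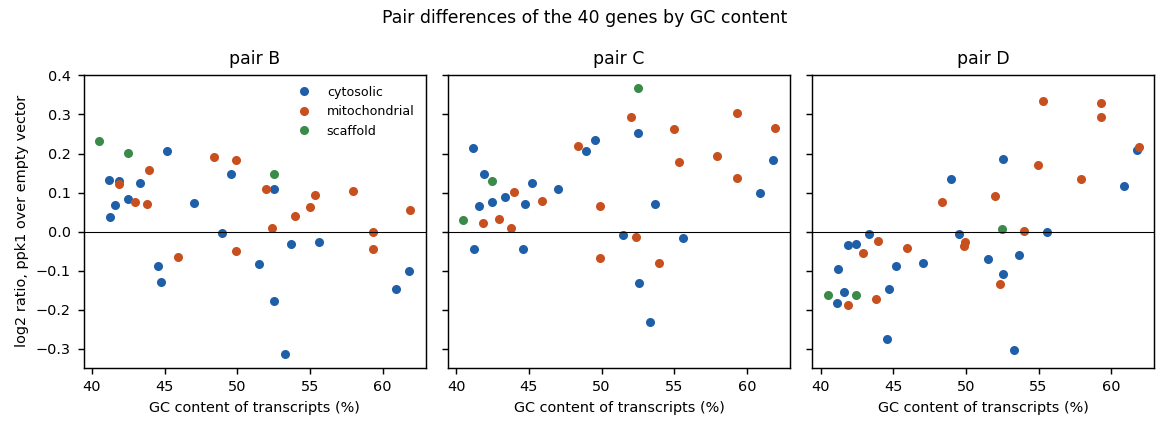
Log2 difference between the matched ppk1 and empty vector libraries (y axis) against transcript GC content in percent (x axis) for the 40 genes, 1 panel per pair, coloured by group. Points slope upward in pair D (r = 0.70) and downward in pair B (r = -0.42).

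The ATF4 pathway was read through the transcripts of ATF4, of its synthetase targets and of other amino acid response genes. The ATF4 protein and the kinases upstream of it were not examined. ATF4 itself, outside the naming rule and given because the pathway bears its name, rose from 736.4 ± 22.6 to 873.0 ± 30.5 CPM (SD, n = 3), or 0.25 on the log2 scale, with an SE of 0.08 and an edgeR adjusted p of 0.0311. Of 13 cytosolic synthetase genes described as ATF4 targets, 0 were called higher (4.04% of all genes were) and 1, CARS, was called lower (5.04%), with a median log2 fold change of 0.02. The 4 genes with a C/EBP-ATF match had log2 fold changes of -0.14 (AARS), -0.07 (GARS), 0.07 (IARS) and 0.08 (YARS2). Their edgeR adjusted p-values were 0.24, 0.622, 0.624 and 0.588. ATF4 was not called without the block (edgeR adjusted p 0.0897), without replicate C (0.525) or without replicate B. Of the 24 amino acid response genes listed apart from the synthetases, ATF4 among them, 6 were called higher (4.04% of all genes were) and 2 lower (5.04%), and the median was 0.07.

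The higher ones were led by ATF5, a related transcription factor, which had 7.24, 8.51 and 7.44 CPM with the empty vector and 9.66, 14.1 and 12.6 CPM with ppk1 (log2 fold change 0.63, SE 0.10). CEBPB, a partner of ATF4 at the composite element, rose by 0.39, SESN2, which restrains mTORC1, by 0.31 and TRIB3, a pseudokinase that feeds back on ATF4, by 0.31 on the log2 scale. SLC7A5, a subunit of a large neutral amino acid transporter named here after its values were seen, rose by 0.25. Its partner subunit SLC3A2 fell by 0.26 on the log2 scale, from 274.4, 289.5 and 287.4 CPM to 231.6, 240.2 and 238.5 CPM, and ATF3, a stress transcription factor, fell by 0.31. Asparagine synthetase, ASNS, a widely used ATF4 target, had a log2 fold change of -0.06 and was not called (edgeR adjusted p 0.658). Without the block (2.40% of all genes called), and likewise without replicate C (2.06%), 2 of the 24 were called, ATF5 and CEBPB.

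Genes that work beside the synthetases were measured as well. A list of partners of tRNA charging held 18 tested genes. Most of them edit, repair, mature, export or modify tRNA or take the indirect route to charged tRNA. HINT1 and NUDT2 have other roles. TARSL2, a threonyl-tRNA synthetase gene, was listed too (37.1 CPM with the empty vector and 38.1 CPM with ppk1). The naming rule did not take TARSL2, so it entered no comparison above. By edgeR 0 of the 18 were called (9.08% of all genes were). An unadjusted p below 0.05 was found for 2, ELAC2 and HINT1 (log2 fold changes 0.17 and 0.16), beside 23.8% of all genes. QRSL1, GATB and GATC, the subunits of the enzyme that makes mitochondrial glutaminyl-tRNA, had log2 fold changes of 0.01, 0.04 and 0.12. Of 12 genes for factors that carry charged tRNA to the ribosome or for their exchange factors, 1 was called higher (4.04% of all genes were) and 1 lower (5.04%). EEF1G, counted among the 12, had only 0.790 to 1.32 CPM per library, for a reason that was not tested. EEF1D, a subunit of the exchange factor of elongation factor 1, rose by 0.25. EEF1A2, an isoform of elongation factor 1 alpha, fell by 0.34 on the log2 scale. The edgeR adjusted p-values were 0.024 and 0.00326, and neither gene was called without the block (0.11 and 0.109) or without replicate C (0.529 and 0.366). Split by the fold of their catalytic domain, 1 of the 19 class I genes was called, CARS (lower), and 0 of the 18 class II genes, beside 9.08% of all genes. EPRS was counted in class I alone, although its prolyl part belongs with class II, where PARS2 was counted. There were 4 of each class at an unadjusted p below 0.05 with edgeR, beside 23.8% of all genes. The medians were 0.07 for class I and 0.01 for class II.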

How the data were processed

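Poly(A)-selected RNA of 6 HEK293T cultures was sequenced with a strand-keeping kit, per the labels' protocols. The authors deposited 1 table of whole-number counts per Ensembl gene, used here as raw read counts. The submitters' processing notes name bcl2fastq 2.20, Trimmomatic, STAR, HTSeq, edgeR, DESeq, Cufflinks and Cuffdiff. The genome build, annotation, strand setting and treatment of multiply mapped reads are not given in the sources used here. Overlapping genes and genes that share sequence are therefore uncertain. No table row lacked a gene.

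The counts were fitted in edgeR 4.0.16 (R 4.3.3) over the whole table: filterByExpr with a minimum count of 10, TMM scaling, glmQLFit and glmQLFTest, the replicate letter as a block, and Benjamini-Hochberg adjustment over 19574 genes at 0.05. A standard error is the absolute log2 fold change over the square root of F, and 95% intervals use the test's degrees of freedom. The pairing comes from the series' design text. Around the group means, libraries with the same letter correlated at 0.109 (B), 0.135 (C) and 0.0476 (D), and those of different letters at -0.12 to -0.00506. The p-values rest on the spread left after differences between the letters are taken out. That spread is largely shared across genes (a median of 47.5 prior degrees of freedom), not each gene's own. The independence of the cultures is not described further. A count of 0 allows up to 3 counts, or 0.0447 to 0.0734 CPM, for counting error alone.

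Chromosomes, transcript lengths, GC content and overlaps came from GENCODE release 29, matched on Ensembl identifiers (57447 matched, 98.96%). Gene positions are not printed because the counts name no build. Shared sequence was counted over 50-base windows. The code was tested on simulated data. Alternatives were RLE and upper-quartile scaling, no filter and a stricter one (a mean of 50 counts), no block, DESeq2 1.42.0, GC and length offsets, thinning to equal depth, and leaving out each pair. The members and gene lists were chosen with earlier results of these data known. All 40 members enter the counts and medians, and 1 of them is not reported here by name or in comparisons of single genes. Library values are given for called members, the 4 uncalled cytosolic and 4 mitochondrial genes of smallest p, the scaffolds, GARS and KARS, and at most 6 called genes are named from other lists, by p, with exceptions marked.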

Additional observations from a re-analysis of the deposited data

How the results depend on the processing

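CARS was the 1 called member with RLE or upper-quartile scaling, with either filter alternative, with thinning, with DESeq2 and with no replicate block. Without the block 470 genes were called in place of 1777, and DESeq2 with the block called 757. Leaving out a pair gave 406 (without C) to 2435 (without B) called genes. GC and length offsets called 5 members, counted as 2 cytosolic or scaffold and 3 mitochondrial. Leaving out a pair called 0 (without C) to 3 (without B) members, 0 to 2 cytosolic or scaffold and 0 to 2 mitochondrial genes, 0 to 1 (AIMP2, without D) of the complex and 0 (without C) to 1 of the ATF4-described synthetases. For the amino acid response genes the block mattered: 2 were called without it, against 8, and leaving out a pair gave 2 (without C) to 8. Of the charging partners 1 (HINT1) was called with GC and length offsets, and 0 to 1 without a pair. Of the delivery genes 1 was called with upper-quartile scaling, 0 without the block, and 0 (without C) to 2 without a pair. The cause of these differences was not tested.

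Of 154 values for 14 named members under 11 alternatives, 144 kept direction and side of the threshold, 6 became called and 1 lost its call (CARS without C). The signs of 3 turned: leaving out a pair gave AIMP1 -0.0662 (without B) to 0.11, EEF1E1 -0.0177 (without B) to 0.14 and KARS -0.0017 (without C) to 0.0709 (log2 fold changes). The medians and sums of both compartments moved by less than 1 SD of the pairs. For the sums, leaving out 1 of 3 pairs cannot move a mean by that much, so no stability follows. The SD also exceeded the cytosolic values themselves (0.0741 against a median of 0.0285, and 0.0628 against 0.0147 for the sum). The cytosolic ones lie near 0 and turned sign: the median was -0.0139 without C, and the sum -0.0071 with upper-quartile scaling and -0.0175 without C. The mitochondrial median was 0.0384 without B, against 0.0787, and the sum 0.047 without C, against 0.0717. The lowest count of a member was 632. Intervals rest on 3 pairs and on a spread shared across genes.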
